A study of Mus musculus with 6 samples.

Results

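The prostaglandin and leukotriene pathway was followed through 10 genes, out of 17469 genes with deposited values. These were Ptgs1, Ptgs2, Ptges, Hpgds, Hpgd, Slco2b1, Ptger2, Ptger4, Alox5ap and Ltc4s. The 10 genes were selected by name for their difference between the genotypes in these same libraries, so their values across genotypes are a description and carry no test. All 10 passed the filter on low counts, which 12701 genes passed, and none had fewer than 29 counts in any library. RNA-seq was done on tdTomato+ cells, taken by the study to be osteoblast (OB) progenitors, that were sorted from cultures of bone marrow stromal cells (BMSCs) of untreated 6-month-old mice. There were 3 libraries of OCN-Cre;Ai9 (control) cells and 3 of TgAPPsweOCN;Ai9 (APPswe+) cells, which the labels call TgAPPswe;Ocn-Cre;Ai9. Both genotypes carried OCN-Cre, a Cre recombinase driven by the osteocalcin promoter, and Ai9, a reporter allele that turns on tdTomato in cells where Cre has been active. APPswe+ mice also carried a transgene for human amyloid precursor protein bearing the Swedish mutation (APPswe), silent until Cre removes a stop cassette, and the controls of this RNA-seq lacked that transgene. The study's authors describe Cre activity of this driver in some neurons as well as in bone cells. How many mice stood behind each library is not stated in the sources used here, so every p-value measures the spread between these libraries, which may be technical.

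Prostaglandins and leukotrienes are short-lived lipid mediators made from arachidonate, a fatty acid that phospholipases release from membranes. The cyclooxygenases (Ptgs1, made steadily in many cells, and Ptgs2, which inflammatory signals induce) turn it into PGH2, from which terminal synthases make PGE2, PGD2 and other prostanoids, while 5-lipoxygenase and its partner Alox5ap start the leukotriene branch. PGE2 acts on receptors such as Ptger2 and Ptger4, which raise cAMP, and its action ends when transporters carry it into cells and Hpgd oxidizes it. In bone, PGE2 acts on osteoblasts and on osteoclasts, and macrophages are a main source of both kinds of mediator.

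For the 4 genes in which synthesis and clearance of PGE2 differed most in opposite directions, the sequence around the annotated start is shown, from 250 bases before it to 30 bases from it. The sequences and starts are those of RefSeq (GRCm38.p6), which gave a promoter for 9 of the 10 genes. Alox5ap had none there. The windows are chr1:150099781-150100060 (plus strand) for Ptgs2, chr2:30903268-30903547 (minus strand) for Ptges, chr8:56294302-56294581 (plus strand) for Hpgd and chr7:99711311-99711590 (minus strand) for Slco2b1, the first of 3 annotated starts. Capitals mark matches, on either strand, to 6 short motifs. The TATA box was searched as TATAAA and the E-box as CACGTG. The CRE half-site was searched as CGTCA and the C/EBP motif as TTNNGNAA, where N is any base. The ETS motif was searched as GAGGAA and the SP1 motif as GGGCGG.
Ptgs2: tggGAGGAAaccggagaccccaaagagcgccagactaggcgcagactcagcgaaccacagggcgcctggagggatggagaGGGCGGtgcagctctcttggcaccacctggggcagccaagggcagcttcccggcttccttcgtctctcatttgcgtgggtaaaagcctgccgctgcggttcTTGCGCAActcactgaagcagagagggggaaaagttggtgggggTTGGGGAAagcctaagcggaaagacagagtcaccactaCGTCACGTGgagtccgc
Ptges: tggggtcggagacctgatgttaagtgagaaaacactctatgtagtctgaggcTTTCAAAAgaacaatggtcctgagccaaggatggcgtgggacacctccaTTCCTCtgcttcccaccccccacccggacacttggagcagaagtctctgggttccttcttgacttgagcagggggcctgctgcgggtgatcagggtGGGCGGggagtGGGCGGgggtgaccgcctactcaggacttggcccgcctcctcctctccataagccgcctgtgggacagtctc
Hpgd: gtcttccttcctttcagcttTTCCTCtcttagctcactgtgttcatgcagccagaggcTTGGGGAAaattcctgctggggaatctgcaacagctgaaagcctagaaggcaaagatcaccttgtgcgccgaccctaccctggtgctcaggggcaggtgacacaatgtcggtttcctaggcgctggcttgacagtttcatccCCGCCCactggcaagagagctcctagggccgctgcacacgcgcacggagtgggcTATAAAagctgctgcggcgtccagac
Slco2b1: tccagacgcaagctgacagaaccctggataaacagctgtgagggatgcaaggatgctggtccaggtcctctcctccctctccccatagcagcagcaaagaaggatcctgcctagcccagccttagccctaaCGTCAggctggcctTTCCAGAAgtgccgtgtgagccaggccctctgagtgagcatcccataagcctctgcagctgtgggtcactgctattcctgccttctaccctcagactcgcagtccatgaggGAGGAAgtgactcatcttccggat

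Among 32851 promoters of the same length, 13.1% held the TATA box letters, 6.79% the E-box, 19.9% the CRE half-site, 39.3% the C/EBP motif, 26.0% the ETS motif and 34.7% the SP1 motif, so matches of each kind occur in many other genes. The window of Ptgs2 held a match to 5 of the 6 motifs. Its CGTCA, at bases 14 to 18 from the start, overlapped its CACGTG, at bases 17 to 22, and its other matches lay before the start. The window of Ptges held 2 copies of GGGCGG, 53 and 42 bases before the start. In Hpgd the match to TATAAA lay at bases 5 to 10, within the annotated transcript, and in Slco2b1 a CGTCA lay 119 bases before the start. GC content was 61.4% in Ptgs2, 59.6% in Ptges, 57.1% in Hpgd and 57.1% in Slco2b1, against a median of 52.5% over all promoters. These matches describe letters in the windows and no binding was measured.

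Estimated counts summed to 19340810 to 19801060 in controls and to 21677461 to 22037840 in the APPswe+ libraries. At these depths 3 counts, the smallest level taken as detectable, came to 0.136 to 0.155 CPM (counts scaled by the library total), a limit from counting error alone. The table has 1 entry for App, in which transgene and mouse reads cannot be told apart. Its FPKM (fragments scaled by gene length and by all mapped fragments) was 275 to 281 in controls and 325 to 333 in the APPswe+ libraries, a log2 fold change of 0.45 ± 0.05 (SE, edgeR adjusted p = 7.87e-05). Genotype separated the libraries on the first principal component (84.0% of the variance). The second (6.11%) set APPswe+ library 1, at -26.0, apart from APPswe+ library 2, at 24.6, with the other 4 libraries between -3.90 and 3.0. Summed over 15 myeloid marker genes, FPKM ran from 25072 to 26727 in controls, against 1127 to 1215 for 15 osteoblast and stromal marker genes. Of the latter list, Bglap, the osteocalcin gene itself, had at most 10 counts in any library and Dmp1 at most 3. These transcripts of mature osteoblasts and osteocytes were thus near the lower end of detection in both genotypes.

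Within the pathway, the 2 enzymes of inducible PGE2 synthesis stood higher in the APPswe+ libraries, and the other 8 genes stood lower. Values below are FPKM in libraries 1, 2 and 3 of each genotype, and log2 fold changes are of TMM-normalized counts (edgeR), APPswe+ over control, with their standard errors. Across all 12701 genes tested, 1130 (8.90%) were called higher and 1169 (9.20%) called lower in APPswe+ libraries where calls took a Benjamini-Hochberg adjusted p of no more than 0.05 together with an absolute log2 fold change of 1 or more. Of the 10 genes, 2 met both limits as higher and 6 as lower, which follows from how they were chosen. In normalized counts the genotypes did not overlap for any of the 10, with 2 higher and 8 lower, while 34.8% of all genes tested lay wholly higher and 34.9% wholly lower. In bulk RNA, fewer cells of a type and less RNA per cell cannot be told apart, and this holds for every difference given here.

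**Figure D1:**
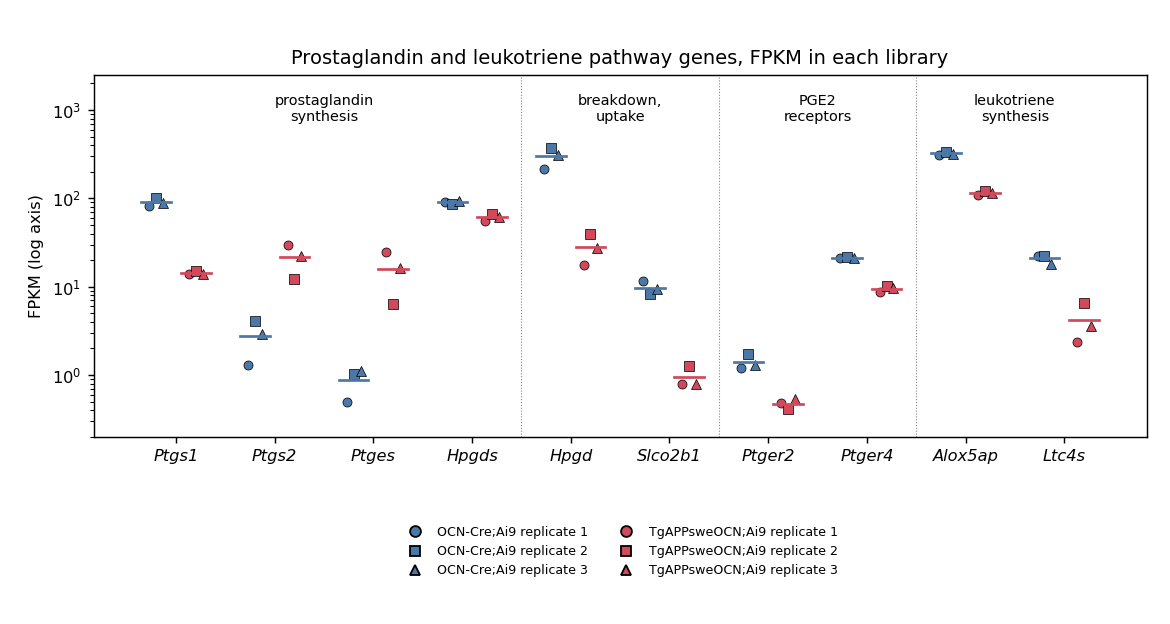
FPKM of the 10 genes in each of the 6 libraries on a log axis, grouped by role, with control libraries in blue, TgAPPsweOCN;Ai9 libraries in red, a marker shape for each replicate number and a line at each genotype's mean. Ptgs2 and Ptges are higher in all 3 APPswe+ libraries than in any control library, and the other 8 genes are lower.

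Ptgs2 (Entrez identifier 19225, chr1:150100031-150108234) encodes inducible cyclooxygenase. Its FPKM was 1.29, 4.14 and 2.91 in controls and 29.9, 12.1 and 22.5 in the APPswe+ libraries. The lowest APPswe+ library, library 2, still lay above the highest control library. The means were 2.78 ± 1.43 (SD, n = 3) and 21.5 ± 8.93, and the log2 fold change was 3.17 ± 0.43, or 9.0-fold higher.

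Ptges (Entrez identifier 64292, chr2:30889471-30931020) encodes microsomal PGE synthase, the terminal enzyme that works with Ptgs2 to make PGE2. Its FPKM was 0.500, 1.03 and 1.11 in controls and 25.03, 6.39 and 16.3 in the APPswe+ libraries. Control levels rested on 35, 73 and 77 counts, and APPswe+ levels on 1978, 501 and 1263. The APPswe+ libraries were far apart among themselves, yet all were above the controls. The log2 fold change of 4.40 ± 0.54, or 21.1-fold higher, was the widest of the 10 genes and had the largest standard error.

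Ptgs1 (Entrez identifier 19224, chr2:36216742-36258593), the constitutive cyclooxygenase, differed the other way. Its FPKM was 81.3, 101 and 89.3 in controls and 13.9, 15.2 and 13.8 in the APPswe+ libraries. Replicates were close within each genotype, with means of 90.6 ± 9.97 and 14.3 ± 0.769. The log2 fold change was -2.45 ± 0.09, or 5.48-fold lower.

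Hpgds (Entrez identifier 54486, chr6:65117293-65144981) encodes hematopoietic PGD synthase, which turns PGH2 into PGD2. Its FPKM was 91.8, 87.3 and 94.3 in controls and 55.2, 66.0 and 61.5 in the APPswe+ libraries. It was lower in every APPswe+ library, but by the smallest amount of the 10 genes, with a log2 fold change of -0.45 ± 0.06 (1.36-fold lower). The ratio of counts to FPKM, which follows the length that the authors' estimate gave the gene, varied by a factor of 1.09 between libraries for Hpgds, and 1 of its 6 counts was fractional.

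Hpgd (Entrez identifier 15446, chr8:56294552-56321046) encodes 15-hydroxyprostaglandin dehydrogenase, the enzyme that inactivates PGE2. Its FPKM was 215, 371 and 312 in controls and 17.7, 39.1 and 27.7 in the APPswe+ libraries. Every APPswe+ library was well under every control library, with a gap of 4.83-fold in normalized counts between the nearest 2 libraries. The means were 299 ± 78.8 and 28.2 ± 10.7, and the log2 fold change was -3.20 ± 0.29, or 9.19-fold lower.

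Slco2b1 (Entrez identifier 101488, chr7:99657804-99711340) encodes an organic anion transporter, counted here with clearance. Its FPKM was 11.5, 8.37 and 9.39 in controls and 0.800, 1.28 and 0.800 in the APPswe+ libraries, from 917, 665 and 744 counts against 71, 109 and 69. The genotypes were 5.91-fold apart at their nearest libraries in normalized counts. The log2 fold change was -3.17 ± 0.18, or 8.99-fold lower.

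The order of levels changed with the balance of these genes, which FPKM allows to be compared between genes per length. In control libraries Alox5ap (322 ± 12.1) and Hpgd (299 ± 78.8) were the highest of the 10 and overlapped each other, followed by Hpgds and Ptgs1, which also overlapped. Ptger4 and Ltc4s came next and overlapped, then Slco2b1, then Ptgs2 and Ptger2, which overlapped, and Ptges was lowest. In APPswe+ libraries Alox5ap (115 ± 5.68) and Hpgds (60.9 ± 5.4) led without overlap. Hpgd, Ptgs2, Ptges and Ptgs1 followed, each overlapping the next. Ptger4, Ltc4s, Slco2b1 and Ptger2 then stepped down without overlap between neighbours in the order. Ptges, however, at 6.39 to 25.03, spanned the range of Ptger4 (8.62 to 10.22) and reached that of Ltc4s (2.38 to 6.58).

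Ratios within a library set synthesis against clearance without any scaling between libraries. The FPKM ratio of Ptgs2 to Ptgs1 was 0.0159, 0.0409 and 0.0326 in controls and 2.15, 0.798 and 1.63 in the APPswe+ libraries. Ptgs1 thus made up nearly all cyclooxygenase transcript in controls, while the APPswe+ libraries held comparable amounts of both. The ratio of Hpgd to Ptges was 430.2, 360.3 and 281 in controls and 0.709, 6.12 and 1.70 in the APPswe+ libraries. Hpgd still exceeded Ptges in APPswe+ libraries 2 and 3 and lay under it in library 1. The ratio of Ptges to Slco2b1 was 0.0434, 0.123 and 0.118 in controls and 31.3, 4.99 and 20.3 in the APPswe+ libraries. Between the 2 synthesis enzymes the ratio moved less, with Ptges to Ptgs2 at 0.388, 0.249 and 0.381 against 0.838, 0.529 and 0.723.

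**Figure D2:**
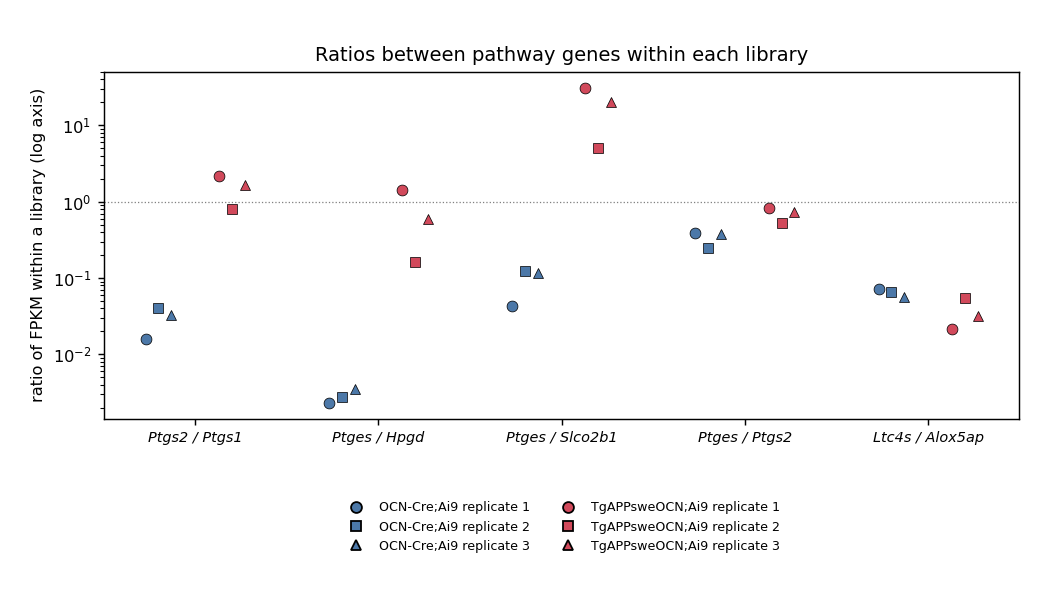
Ratio of FPKM between pairs of the pathway genes in each library, on a log axis, with control libraries in blue, TgAPPsweOCN;Ai9 libraries in red and a dotted line at equal levels. Ptgs2 to Ptgs1 lies at 0.0159 to 0.0409 in controls and at 0.798 to 2.15 in APPswe+ libraries, and Ptges to Hpgd and Ptges to Slco2b1 are further apart.

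Both PGE2 receptors that raise cAMP stood lower. Ptger4 (EP4; Entrez identifier 19219, chr15:5233399-5244187) had an FPKM of 21.0, 21.8 and 21.1 in controls and 8.62, 10.2 and 9.73 in the APPswe+ libraries. The replicates were tight and the genotypes did not overlap, with a log2 fold change of -0.95 ± 0.07 (1.93-fold lower), just short of the fold limit. Ptger2 (EP2; Entrez identifier 19217, chr14:44988111-45003820) was the least abundant receptor of the pair, with an FPKM of 1.2, 1.73 and 1.30 against 0.480, 0.410 and 0.530. Its 78, 96 and 87 counts in controls lay above the 39, 33 and 29 of APPswe+ libraries, with a log2 fold change of -1.31 ± 0.19 (2.48-fold lower). The ratio of counts to FPKM of Ptger2 varied by a factor of 1.46 between libraries, so its FPKM also moved with the estimated length. Per length, Ptger4 exceeded Ptger2 by 12.6 to 17.5 times in controls and by 18.0 to 24.9 times in the APPswe+ libraries.

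On the leukotriene side, Alox5ap (Entrez identifier 11690, chr5:149265004-149288153), the protein that presents arachidonate to 5-lipoxygenase, was the most abundant of the 10 genes in both genotypes. Its FPKM was 311, 335 and 320.3 in controls and 110.0, 121 and 114 in the APPswe+ libraries. Replicates differed little and the genotypes lay apart, with a log2 fold change of -1.27 ± 0.06 (2.41-fold lower). Ltc4s (Entrez identifier 17001, chr11:50236461-50238532) joins glutathione to leukotriene A4 to make leukotriene C4. Its FPKM was 22.4, 22.3 and 18.0 in controls and 2.38, 6.58 and 3.60 in the APPswe+ libraries, resting on 31, 85 and 46 counts in the latter. All 3 APPswe+ libraries lay under the controls, library 2 nearest to them, and the log2 fold change was -2.10 ± 0.29 (4.29-fold lower). Relative to Alox5ap, Ltc4s stood at 0.0720, 0.0665 and 0.0563 in controls and at 0.0216, 0.0543 and 0.0316 in the APPswe+ libraries, so the gap between the 2 genes widened least in APPswe+ library 2.

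The 10 genes were chosen for their difference between genotypes, so their spread within a genotype may depend on that choice and is a description. Over the 11860 genes that reached 10 counts in all libraries, the highest normalized count within a genotype was 1.14 times the lowest for the median gene in both genotypes, and the 95th percentile was 1.70 in control and 1.79 in APPswe+ libraries. Ptgs2 varied by 3.21 times in control and 2.56 times in APPswe+ libraries, Ptges by 2.21 and 4.07 times, and Hpgd by 1.72 and 2.12 times. These 3 genes of induced synthesis and breakdown were thus past the 95th percentile in both genotypes. Counting error, larger at low counts such as the 35, 73 and 77 of Ptges in controls, was not taken out. Ltc4s varied by 1.24 times in control and 2.66 times in APPswe+ libraries, past that percentile in the latter, while Alox5ap varied by 1.07 and 1.06 times and Ptger4 by 1.04 and 1.15 times. In APPswe+ libraries Ptgs2 and Ptges were both highest in library 1 and lowest in library 2. Hpgd and Ltc4s showed the opposite order there, highest in library 2 and lowest in library 1, as did Hpgds, Ptger4 and Alox5ap by smaller amounts. Ptgs1 and Slco2b1 were highest in library 2 but lowest in library 3, and Ptger2 was highest in library 1 and lowest in library 3. APPswe+ libraries 1 and 2 lay at the ends of the second principal component given above, and its part in these values was not tested. In control libraries Ptgs2 and Hpgd were both highest in library 2 and lowest in library 1, so the opposite order of the APPswe+ libraries did not recur there.

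The genes whose log2 CPM followed these patterns most closely over the 6 libraries, among genes that reached 10 counts in all libraries, are given as a description with no test. All 6 points shared only 2 genotypes. For Hpgd they were Rbbp5, Entpd1 and Etv3 (Pearson r = 0.999 each, n = 6 libraries). Entpd1, an ectoenzyme that breaks down extracellular ATP, had an FPKM of 35.2, 47.4 and 44.3 in controls and 4.47, 8.33 and 6.27 in the APPswe+ libraries, while Rbbp5 differed by only -0.33 on the log2 scale. For Ptgs2 the closest were Mtpn (r = 0.999), Marchf5 (r = 0.998) and Lig4 (r = 0.997), with log2 fold changes of 0.63, 0.29 and 0.41.

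The other genes of the pathway, listed by their known roles, were tested. Of 85 listed genes, 82 were in the table and 68 had enough counts. Among these 68, 11 (16.2%) were called higher and 16 (23.5%) lower, beside 8.90% and 9.20% of all genes tested, the shares against which the counts of each role below are to be read. Their median log2 fold change was -0.22, beside -0.02 over all genes tested. By adjusted p alone 20 were higher and 31 lower, where 64.0% of all genes tested met that limit in either direction. Scaling by library size only moved the median of all genes from -0.02 to -0.23, and with it the split of calls from 11 higher and 16 lower to 8 and 20, against 846 and 1732 over all genes. Changes are therefore given relative to the TMM scale.

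**Figure D3:**
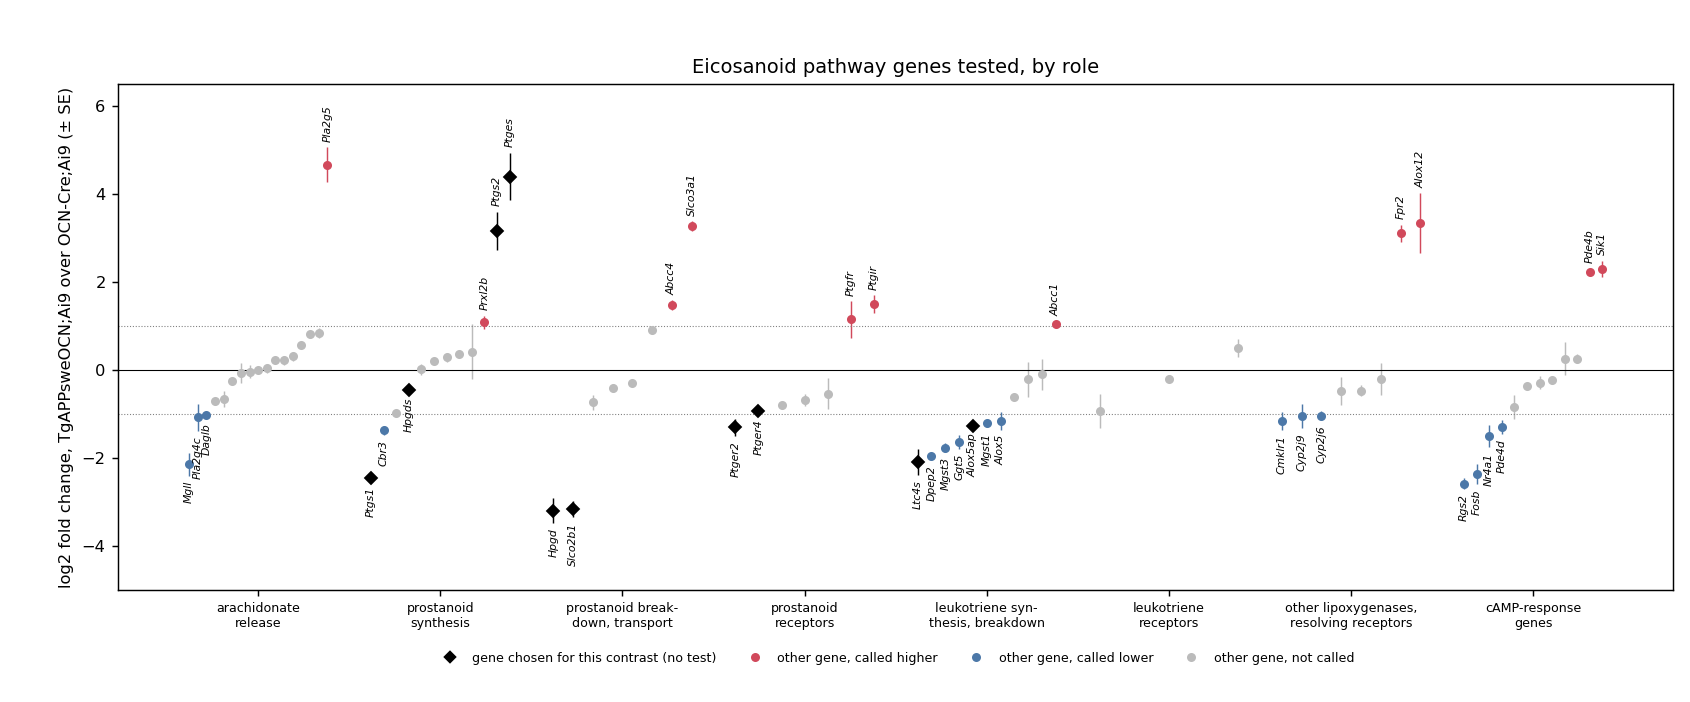
Log2 fold change (APPswe+ over control, edgeR) of the tested pathway genes by role, with bars for the standard error and dotted lines at 1 and -1. Black diamonds are the 10 genes chosen for this comparison, red and blue circles are other genes called higher and lower, and grey circles were not called. Pla2g5, Ptges, Alox12, Slco3a1, Ptgs2 and Fpr2 lie above 3, and Hpgd and Slco2b1 lie lowest.

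Upstream of the cyclooxygenases, 1 of 17 tested genes of arachidonate release was called higher and 3 lower. Pla2g5, a secreted phospholipase A2, was counted 3, 1 and 1 times in controls and 44, 48 and 39 times in APPswe+ libraries. Per total count it was 23.5 times higher (95% exact interval 9.81 to 73.5, counting error only), although in all libraries its FPKM stayed at or below 1.06. It passed the filter only through the APPswe+ libraries, where it was high, so its call (adjusted p = 1.41e-05) is no independent support. With at least 10 counts required in every library it was not tested. Its fitted log2 fold change ran from 0.91 to 5.33 over the alternatives, the lowest in limma on log2(FPKM + 1), where it was not called. Mgll, which releases arachidonate from the endocannabinoid 2-AG, fell from an FPKM of 4.01 ± 0.971 to 0.780 ± 0.226 (log2 fold change -2.15 ± 0.26, adjusted p = 0.000121). Daglb, which makes 2-AG, fell by 1.03 (adjusted p = 3.04e-06), and Pla2g4c, a cytosolic phospholipase A2, by 1.08 (adjusted p = 0.0120) on the log2 scale. Daglb lost its call without APPswe+ library 1 (-0.98), and Pla2g4c without control library 2 (-0.92), APPswe+ library 1 (-0.98) or APPswe+ library 2 (-0.92). Pla2g4c was not called in either limma fit (to -0.25), and so was called in 9 of 14 alternatives. The most abundant gene of the list, Anxa1, which encodes the phospholipase regulator annexin A1, had a log2 fold change of 0.22 ± 0.10 (adjusted p = 0.0899). Pla2g4a, the phospholipase best known for feeding cyclooxygenases and named here after its values were seen, had one of 0.22 ± 0.06 (adjusted p = 0.0104), under the fold limit. Its mean FPKM was 15.6 ± 0.600 in controls and 15.6 ± 0.318 in APPswe+ cells, and its log2 fold change came down to 0.00045 (adjusted p = 0.995) in limma on FPKM, so its difference rested on the scaling.

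Of the 8 other genes of prostanoid synthesis, 1 was called higher and 1 lower. Prxl2b, a prostamide and PGF synthase, rose from an FPKM of 17.1 ± 3.60 to 31.2 ± 2.49 (log2 fold change 1.09 ± 0.15, adjusted p = 0.000237), and was at 0.96 without control library 3 and at 0.85 under the lowest of the other scalings and fits. Cbr3, a carbonyl reductase, fell from 18.1 ± 1.98 to 6.01 ± 0.168 FPKM (log2 fold change -1.38 ± 0.11, adjusted p = 8.42e-06). The most abundant, Akr1b3, an aldo-keto reductase with PGF synthase activity, had an FPKM of 119 to 125 in the control and 119 to 124 in the APPswe+ libraries, with a log2 fold change of 0.21 ± 0.05 on the TMM scale (adjusted p = 0.00676). The further PGE synthases differed by far less than Ptges. Their log2 fold changes were 0.29 for Ptges2 (adjusted p = 0.0302) and 0.37 for Ptges3 (adjusted p = 0.00164). Tbxas1, thromboxane synthase, lay just short of the fold limit at -0.99 ± 0.08 (adjusted p = 1.31e-05), with FPKM of 98.4, 92.6 and 90.1 against 35.8, 45.5 and 40.2. It passed the limit in 5 of 14 alternatives, which were library size only, both limma fits and those without control library 3 or APPswe+ library 2 (to -1.21). These last 3 genes were named after their values were seen.

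Not every transport gene stood lower. Of 6 further genes, 2 were called higher and 0 lower by edgeR, while by adjusted p alone 3 were higher and 3 lower. Slco3a1, an organic anion transporter that carries prostaglandins, rose from an FPKM of 5.08, 5.49 and 4.8 to 43.5, 34.7 and 38.5. Its log2 fold change of 3.27 ± 0.11 (adjusted p = 1.22e-07) was about the size of that of Slco2b1 with the opposite sign. Abcc4, which exports PGE2 from cells, rose from 5.63, 5.88 and 6.03 to 15.4, 11.9 and 14.6 FPKM (log2 fold change 1.47 ± 0.11, adjusted p = 6.57e-06). Slco2a1, the uptake transporter best known for prostaglandins and named here after its values were seen, had a log2 fold change of -0.74 ± 0.17 (adjusted p = 0.00510), under the fold limit. The breakdown genes Ptgr1 and Ptgr2, also named after their values were seen, stood lower like Hpgd but under the fold limit. Their log2 fold changes were -0.41 (adjusted p = 0.00590) and -0.30 (adjusted p = 0.00289).

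Among 5 other tested genes listed with the prostanoid receptors, 2 were called higher and 0 lower by edgeR, with 2 higher and 2 lower by adjusted p alone. Those lower included Ptgfrn, a regulator of the PGF2α receptor and not itself a receptor, named here after its values were seen. Its log2 fold change was -0.68 (adjusted p = 0.00271). Ptgir, the prostacyclin receptor, which also raises cAMP, rose from an FPKM of 1.05, 0.970 and 0.860 to 2.87, 1.80 and 2.62 (log2 fold change 1.49 ± 0.21, adjusted p = 0.000272), the other way from Ptger2 and Ptger4. It was at 0.79, and not called, in limma on log2(FPKM + 1). Ptgfr, the receptor of PGF2α, had 7, 11 and 23 counts against 27, 38 and 23. Its call (log2 fold change 1.15 ± 0.42, adjusted p = 0.0403) was lost without any 1 library except control library 3, and was found in only 3 of 13 alternatives. Without the other 5 libraries in turn it had log2 fold changes of 0.83 to 1.30 and adjusted p of 0.0551 to 0.118. Ptger1, the most abundant of the 5, had an FPKM of 4.75, 4.46 and 4.84 against 2.24, 2.45 and 2.26 (log2 fold change -0.81 ± 0.08, adjusted p = 3.33e-05), under the fold limit, which it passed with library size only (-1.02).

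Of 9 other tested genes of leukotriene synthesis and breakdown, 1 was called higher and 5 lower. Alox5, 5-lipoxygenase itself, fell from an FPKM of 4.26, 2.94 and 2.96 to 1.49, 1.29 and 1.12 (log2 fold change -1.16 ± 0.20, adjusted p = 0.000891), and was at -0.97, under the fold limit, without control library 1 and at -0.92 in limma on log2(FPKM + 1). Dpep2, which cleaves leukotriene D4 and was the most abundant of the list, fell from 110 ± 5.97 to 23.9 ± 1.80 FPKM (log2 fold change -1.97 ± 0.09, adjusted p = 3.85e-07). Ggt5, which acts one step before it on leukotriene C4, fell by 1.64 (adjusted p = 2.82e-05). The membrane glutathione S-transferases Mgst1 and Mgst3 fell by 1.21 (adjusted p = 9.43e-06) and by 1.77 (adjusted p = 1.60e-06) on the log2 scale. Abcc1, which exports leukotriene C4, rose from 33.2 ± 2.38 to 58.9 ± 2.81 FPKM (log2 fold change 1.04 ± 0.07, adjusted p = 5.77e-06), and was at 0.97 without control library 1 and at 0.99 without APPswe+ library 1. It was also under the fold limit with library size only and in both limma fits (lowest 0.81), so it was called in 9 of 14 alternatives. The 5 genes called lower thus covered 5-lipoxygenase, glutathione transferases and the steps after leukotriene C4, and the gene called higher was its exporter. Of the 3 tested leukotriene receptors 0 were called by edgeR, with 0 higher and 1 lower by adjusted p alone. This was Cysltr1, the most abundant, at -0.20 ± 0.07 (adjusted p = 0.0397).

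Of 8 tested genes of other lipoxygenases, epoxide enzymes and receptors of resolving lipids, 2 were called higher and 3 lower. Fpr2, a receptor of formyl peptides, annexin A1 and lipoxin, rose from an FPKM of 20.9, 12.8 and 15.7 to 145, 102 and 119 (log2 fold change 3.11 ± 0.20, adjusted p = 3.07e-06). Alox12, 12-lipoxygenase, was counted 0, 1 and 4 times in controls and 20, 12 and 20 times in APPswe+ libraries, 9.32 times higher per total count (95% exact interval 3.75 to 29.9). Like Pla2g5 it passed the filter only through the APPswe+ libraries, so its call (adjusted p = 0.00231) is no independent support. With at least 10 counts required in every library it was not tested. Of its 5 control counts 4 were in control library 3, without which its log2 fold change was 4.85 in place of 3.34. It was at 0.45, and not called, in limma on log2(FPKM + 1). Cmklr1, a receptor of chemerin and resolvin E1, fell by 1.17 (adjusted p = 0.00119), and was at -0.92 without control library 1. The cytochrome P450 genes Cyp2j6 and Cyp2j9 fell by 1.04 (adjusted p = 2.61e-05) and by 1.06 (adjusted p = 0.00886). Cyp2j6 was at -0.97 without APPswe+ library 1, and Cyp2j9 at -0.99 without control library 2 and -0.87 without APPswe+ library 2. Limma on log2(FPKM + 1) called neither (-0.96 for Cyp2j6 and -0.44 for Cyp2j9).

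Genes known to respond to cAMP, the messenger of Ptger2 and Ptger4, moved in both directions, with 2 of 12 tested called higher and 4 lower. Pde4b, a phosphodiesterase that breaks down cAMP, rose from an FPKM of 6.14, 6.07 and 6.47 to 26.3, 24.1 and 25.4 (log2 fold change 2.24 ± 0.07, adjusted p = 9.07e-08). Its relative Pde4d fell by 1.30 (adjusted p = 0.000101), from a much lower level of 0.797 ± 0.0351 FPKM, and was at -0.49, not called, in limma on log2(FPKM + 1). Sik1, a kinase induced through CREB, rose from 1.63 ± 0.300 to 6.86 ± 1.43 FPKM (log2 fold change 2.30 ± 0.19, adjusted p = 1.39e-05). Rgs2, a regulator of G-protein signalling, fell from 75.8 ± 13.6 to 10.8 ± 0.488 (log2 fold change -2.59 ± 0.13, adjusted p = 7.14e-07), Fosb, an AP-1 subunit, by 2.37 (adjusted p = 2.91e-05) and the nuclear receptor gene Nr4a1 by 1.51 (adjusted p = 0.000830). The most abundant, Dusp1, a MAP kinase phosphatase, had a log2 fold change of -0.29 ± 0.15 (adjusted p = 0.124).

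Several pathway genes are also known from other blood cells, so marker lists of those cells are given beside them. Platelet and megakaryocyte markers (9 genes; platelets are rich in Ptgs1 and Alox12) summed to an FPKM of 558 to 662 in controls and 269, 120 and 179 in APPswe+ libraries 1, 2 and 3. That sum was nearly all Pf4, which macrophages also express. In this list 3 of 5 tested genes were called lower, and Gp9 had at most 18 counts in any. The list stood lower, as did Ptgs1, while Alox12 was called higher, and the part of platelet RNA in either difference was not tested. Mast cell and basophil markers (7 of 10 listed genes in the table; these cells are rich in Hpgds and Ltc4s) summed to only 1.28 to 1.71 in the control and 1.54 to 1.87 in the APPswe+ libraries, with Cpa3, Ms4a2 and Cma1 under 3 counts in every library. Of the 3 tested genes of this list 1 was called higher, Hdc, at 12, 5 and 6 counts against 24, 40 and 41, and 0 lower. The part of these cells in the values of Hpgds and Ltc4s was not tested. Neutrophil markers summed to 12.8 to 53.7 against 18.4 to 51.7, with 1 of 7 tested genes called higher (Camp, at 9, 1 and 4 counts against 21, 54 and 37) and 0 lower. Endothelial markers to 1.98 to 4.46 against 2.22 to 2.62, and lymphocyte markers to at most 0.570 in any library.

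The 15 myeloid markers summed to 19788 to 23463 in the APPswe+ libraries, under the control range of 25072 to 26727, and 4 of them were called higher and 3 lower. This difference depended on the scale, at -0.27 as log2 of summed FPKM and 0.00094 as log2 of summed normalized CPM. The 15 osteoblast and stromal markers summed to 642 to 897 in the APPswe+ libraries, under the control range of 1127 to 1215 (-0.66 in log2 of summed FPKM, -0.36 in normalized CPM), with 0 of 13 tested genes called by edgeR, 1 higher and 4 lower by adjusted p alone. Among APPswe+ libraries the myeloid sum was highest in library 1, where Ptgs2 and Ptges were highest, and the stromal sum in library 2, where Hpgd and Ltc4s were highest. The part of these markers in the differences was not tested. All 4 Y-linked genes of the list were found in every library, with summed FPKM of 66.0 to 72.8 in controls and 56.6 to 60.6 in APPswe+ libraries (-0.27 in log2 of summed FPKM, -0.0187 in normalized CPM), and 0 of 4 were called by edgeR, with 0 higher and 1 lower by adjusted p alone.

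**Figure D4:**
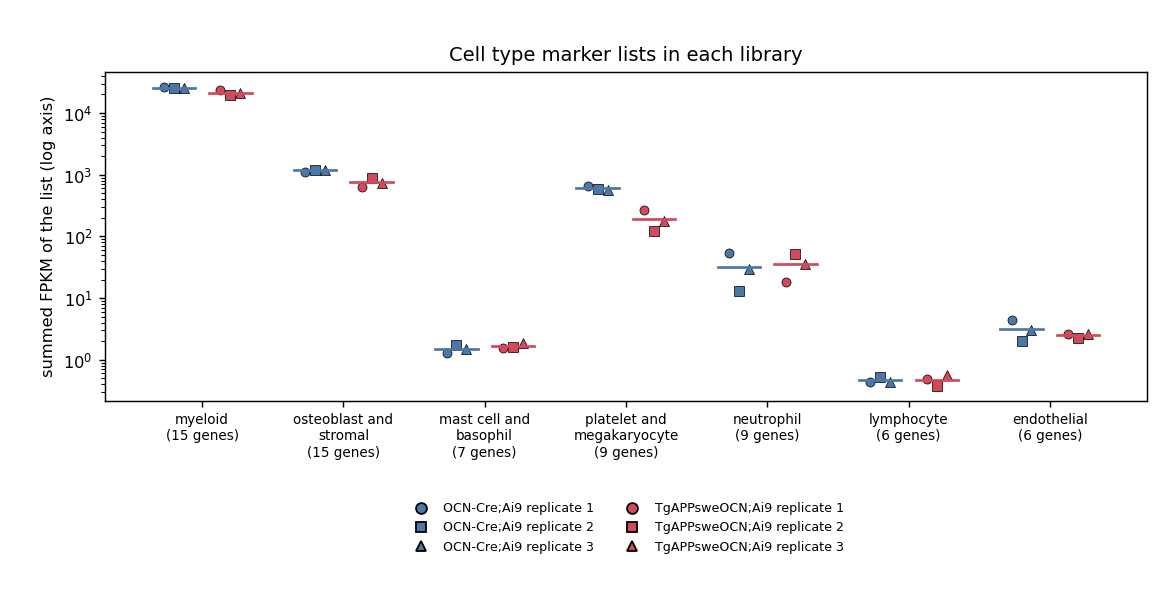
Summed FPKM of 7 lists of cell type markers in each library, on a log axis, with control libraries in blue, TgAPPsweOCN;Ai9 libraries in red and lines at the genotype means. Myeloid markers lie highest in all 6 libraries, and the platelet list at 120 to 269 in APPswe+ libraries is under its 558 to 662 in controls.

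Reads of overlapping genes could enter some counts, since strand in the authors' counting is not given in the sources used here. In GENCODE M21 (GRCm38), 0 exonic bases of Ptgs2, Ptges, Hpgd and Hpgds overlapped another gene. For the other 6 genes the overlaps lay on the opposite strand, from 148 of 3884 exonic bases for Ptgs1 to 1097 of 6648 for Ptger4, and included 549 of 5958 for Slco2b1, 390 of 5193 for Ptger2, 189 of 1420 for Alox5ap and 268 of 1014 for Ltc4s.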

How the data were processed

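RNA was taken from tdTomato+ cells sorted from cultured BMSCs, with 3 libraries of each genotype, and sequenced on a DNBSEQ platform. The paper accepted RNA above a minimum integrity number and does not state the values of each library. Reads of rRNA, adaptors or low quality were removed by the authors, and HISAT2 mapped what was left. The submitters' processing notes name HISAT2 2.0.4, Bowtie2 2.2.5, RSEM 1.2.12, DESeq2 1.4.5 and the build mm10, while the annotation is not given in the sources used here. The authors deposited estimated counts per gene (13.3% to 14.4% of genes per library held a fractional value) and, in the same table, FPKM values. A second table with the authors' fold changes and p-values was not used. The test was planned on raw counts, and the estimated counts were rounded to whole numbers for it.

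The quasi-likelihood test of edgeR 4.0.16 in R 4.3.3 was run with TMM normalization, filterByExpr and no replicate block over all 17469 genes, and p-values were adjusted by Benjamini-Hochberg over the 12701 genes tested. The biological coefficient of variation was 9.85%. Standard errors of log2 fold changes were worked back from the test. Each is the absolute fitted log2 fold change, before shrinkage, divided by the square root of the quasi-likelihood F statistic. Calls took an adjusted p of no more than 0.05 together with an absolute log2 fold change of 1 or more. The procedure was tested on simulated data. CPM for likeness used a prior count of 2. Of the 85 other pathway genes, 80 were matched by symbol and 2 by an older symbol. Python 3.11.15, numpy 2.4.6 and pandas 2.3.3 prepared the tables, and matplotlib 3.10.9 drew the plots. Promoters came from RefSeq.

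The 10 genes and all gene lists were chosen with earlier results of these data known. Named genes are the 10, every other pathway gene called, the most abundant gene of each list by mean FPKM, the 3 genes most like Hpgd and like Ptgs2, and markers where their list is summarised. Others are marked as named after their values were seen. Alternatives were DESeq2 1.42.0, RLE size factors, library size only, no filter beyond 1 count, at least 10 counts in every library, a replicate block, limma 3.58.1 on log2(FPKM + 1) and log2(FPKM + 0.1), no fold limit, leaving out each library in turn, and summed CPM for marker lists.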

Additional observations from a re-analysis of the deposited data

How the results depend on the processing

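Over 14 alternatives each, the 10 genes kept their direction. They were chosen on this same difference and did not overlap between genotypes, so keeping it was largely fixed in advance and is no support. The split of 2 at or above 1 and 6 at or below -1 became 2 and 7 with library size only and with limma on log2(FPKM + 0.1), where Ptger4 passed -1. Leaving out each library in turn gave 2 and 6 throughout, with log2 fold changes of 2.82 to 3.57 for Ptgs2, 3.89 to 4.79 for Ptges, -3.49 to -2.96 for Hpgd, -3.39 to -3.04 for Slco2b1 and -2.57 to -1.83 for Ltc4s. Limma on log2(FPKM + 1), which understates changes of low genes, gave 3.0 for Ptges, 2.56 for Ptgs2, -2.46 for Slco2b1, -0.70 for Ptger2 and -1.09 for Ptger4, so that its 6 at or below -1 held Ptger4 in place of Ptger2. It called 593 genes higher and 845 lower over all genes, and 5 and 12 among the other pathway genes. Without the fold limit 4122 genes were higher and 4007 lower over all genes, and 20 and 31 in the pathway. With at least 10 counts in every library 885 genes were higher and 984 lower over all genes, and 8 and 16 in the pathway. Leaving out each library gave 1103 to 1150 higher and 1125 to 1262 lower over all genes, and 9 to 10 and 13 to 17 in the pathway. In summed normalized CPM in place of FPKM, the log2 difference of the marker lists moved from -0.27 to 0.00094 (myeloid), -0.66 to -0.36 (osteoblast and stromal), 0.17 to 0.64 (mast cell and basophil) and -0.27 to -0.0187 (sex-linked). Normalized CPM exist only for tested genes, which were 3 of 7 mast cell and basophil markers and 13 of 15 osteoblast and stromal markers. For these lists the genes summed therefore changed along with the scale. Whether equal replicate numbers pair the libraries was not settled. Deviations from the genotype means correlated at 0.0127, 0.00664 and 0.141 for same numbers and at -0.0522 to 0.0251 for different numbers. Such correlations cannot exclude a shared preparation. With a replicate block 1115 genes were higher and 1147 lower, 10 and 16 in the pathway, and 2 and 6 of the 10 genes. Depth most limits Pla2g5, Alox12, Ptgfr, Pla2g4c and Cyp2j9 among the called pathway genes, at most 48 counts in any library, while the 10 genes had 29 counts or more.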
